A study of Mus musculus with 8 samples.

Results

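The mouse mitochondrial genome carries 37 genes, and all 37 have a row in the deposited count table, out of 56748 gene rows in all. They were chosen by their place alone, as every row that the table puts on chromosome MT. By the table's own classes they are 13 protein-coding genes, 2 ribosomal RNA genes (mt-Rnr1 and mt-Rnr2) and 22 transfer RNA genes, and 34 of the 37 passed the filter on low counts. The transfer RNA genes mt-Tf, mt-Tv and mt-Td did not pass it. Mitochondrial genes have no introns, so each is a single exon.

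The hearts came from a model of pressure overload, transverse aortic constriction (TAC), in which a band narrows the aortic arch and the left ventricle has to pump against it. CS7KO hearts (4 libraries, numbered 1 to 4) came from mice that lost Smad7 in cardiomyocytes, through a Cre recombinase that the promoter of the alpha myosin heavy chain gene switches on (aMHC Cre). CRE hearts (4 libraries, numbered 1, 2, 3 and 5) carried the aMHC Cre without that deletion. Both groups therefore carry the Cre and both were taken 56 days after TAC, from mice labelled C56BL, male and female, 3 to 4 months old, and no heart without TAC or without Cre was analysed here. The promoter acts in cardiomyocytes, so endothelial cells, fibroblasts and blood cells of a CS7KO heart keep Smad7. Polyadenylated RNA of the whole heart was sequenced, and each library is described as an independent sample.

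Mitochondria keep a small circular genome whose messenger RNAs encode core subunits of respiratory complexes I, III and IV and of ATP synthase (complex V), while all their other proteins come from nuclear genes. Both strands are transcribed into long precursors that are cut at the transfer RNAs lying between the coding genes, so neighbouring genes start from the same transcript and their mature levels also depend on processing and decay. The heart is among the tissues richest in mitochondria, because cardiomyocytes cover their energy demand almost wholly by oxidative phosphorylation. Most mitochondrial messenger RNAs carry short poly(A) tails and are read by most poly(A) protocols, whereas mature transfer RNAs have none.

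Several libraries stood apart or went against their labels. In each genotype 2 hearts are labelled female (CS7KO 3 and 4, CRE 3 and 5), but Xist, the RNA that coats the inactive X of female cells, stood between 0 and 1.03 CPM (counts scaled to the TMM-corrected library size, the scale of all CPM values here) in all 8 libraries. The Y-linked genes Ddx3y and Eif2s3y stood at 67.9 to 138.5 and 36.6 to 81.3 CPM in all 8, so the libraries labelled female carry the pattern of male hearts. The term for labelled sex in the fits below is therefore a split into pairs of libraries, and values without it are given as well. Total counts were between 16476420 and 40181492, and genes with 1 to 9 counts numbered 537 in CRE 1 and 5848 to 19697 elsewhere. Smad7 itself had 19.8, 13.3, 27.8 and 12.3 CPM in CS7KO 1 to 4 and 17.6, 25.5, 25.2 and 45.4 CPM in CRE 1, 2, 3 and 5. These values overlap (log2 fold change -0.59, SE 0.34, edgeR adjusted p = 0.509), so Smad7 RNA did not check the genotype labels, and RNA from cells that keep the gene enters the same count.

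The 37 genes took about 1 count in 5 in CS7KO hearts and a far more variable share in CRE hearts. Their share of all counts was 20.3%, 22.3%, 20.2% and 24.9% in CS7KO 1 to 4, against 15.04%, 20.3%, 41.1% and 69.8% in CRE 1, 2, 3 and 5. The CS7KO libraries lie close together and inside the range of the CRE libraries, of which CRE 3 and CRE 5 are high and CRE 1 is low. The means were 21.9 ± 2.23% in CS7KO and 36.6 ± 24.9% in CRE (SD, n = 4 each), a difference of -14.6 points. No p is given for this sum over the genes. Leaving out single libraries gave differences from -21.8 points, without CRE 1, to -3.55 points, without CRE 5. The difference was 4.25 points, with CS7KO the higher, without CRE 3 and CRE 5. Without CRE 1 and CRE 5, CS7KO stayed the lower. Counting error was negligible here, since the widest 95% Wilson interval of a library's share spanned 0.0443 points. Such intervals cover counting error only.

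**Figure D1:**
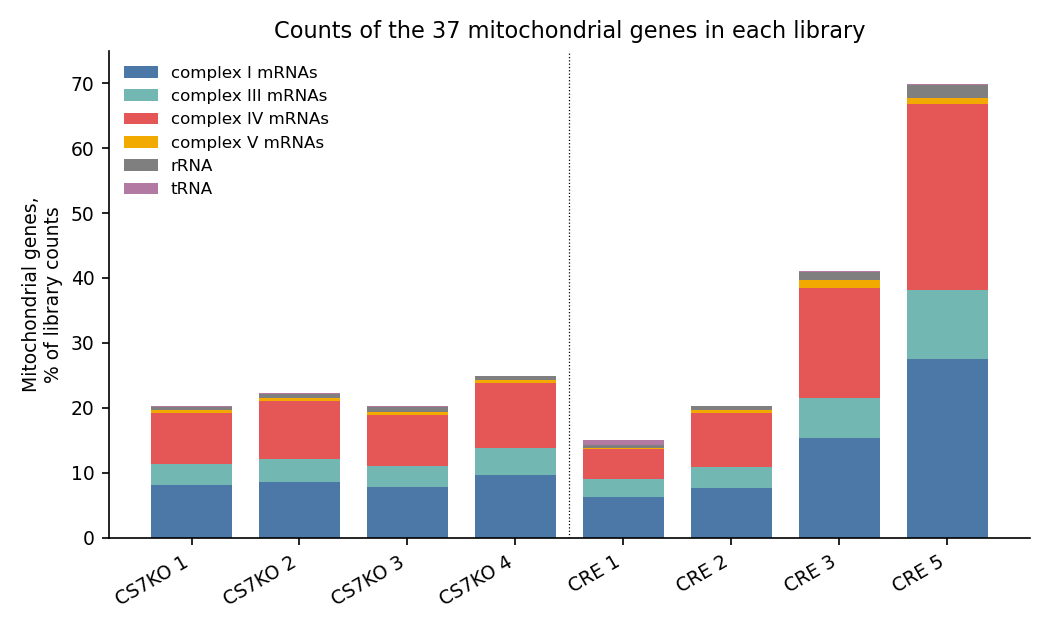
Counts of the 37 mitochondrial genes as a percentage of all counts, one bar per library, stacked by the respiratory complex of the encoded subunit and by RNA class. The 4 CS7KO bars end between 20.2% and 24.9%, and the CRE bars between 15.04% and 69.8%.

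The library-wide share followed the messenger RNAs, which made up nearly all mitochondrial counts. Protein-coding genes took 21.2 ± 2.23% of all counts in CS7KO and 35.2 ± 24.4% in CRE. The ribosomal RNAs took 0.624 ± 0.0727% in CS7KO and 1.06 ± 0.653% in CRE, and the transfer RNAs 0.0821 ± 0.00819% in CS7KO and 0.259 ± 0.310% in CRE (SD, n = 4 each). In all 3 classes the values of the groups overlapped, and the spread among CRE libraries was the larger.

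The same libraries also differed in RNA of cell types, as read from marker lists. The summed level of 15 cardiomyocyte markers, among them Myh6, Tnnt2 and Ttn, was 63041, 59915, 60795 and 71875 CPM in CS7KO 1 to 4, against 77814, 50988, 39515 and 25606 CPM in CRE 1, 2, 3 and 5. All 15 were detected in every library. The summed level of 15 endothelial markers, such as Pecam1 and Cdh5, was 3296, 1604, 2873 and 1376 CPM in CS7KO 1 to 4 and 3673, 2420, 6973 and 7217 CPM in CRE 1, 2, 3 and 5. CRE 3 and CRE 5, with the highest mitochondrial shares, thus had the lowest cardiomyocyte and the highest endothelial sums. The part of this in the mitochondrial values was not tested. In whole-heart RNA, fewer cells of a type and less RNA per cell cannot be told apart. Other lists overlapped between genotypes as well: the sum was 1799 to 5372 CPM in CS7KO and 1510 to 4970 CPM in CRE for fibroblast markers, 708.8 to 762 CPM in CS7KO and 569 to 2234 CPM in CRE for macrophage and monocyte markers, and 823 to 1235 CPM in CS7KO and 941 to 1576 CPM in CRE for smooth muscle and pericyte markers. Adipocyte markers stood at 2.19 to 3.67 CPM in CS7KO and 0.807 to 4.11 CPM in CRE, with Adipoq and Lep at 0 in some library. Erythroid markers stood at 930 to 2933 CPM in CS7KO and 1006 to 1916 CPM in CRE.

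Respiratory complexes are built from subunits of both genomes, so the 13 mitochondrial messenger RNAs can be set against the 73 table rows of nuclear-encoded subunits of the same 4 complexes. Counts of the mitochondrial genes were 7.85, 5.98, 6.42 and 6.40 times those of the nuclear genes in CS7KO 1 to 4. The ratio was 1.84, 5.93, 14.5 and 116 in CRE 1, 2, 3 and 5. CRE 2 lay just under the CS7KO libraries, CRE 1 far below and CRE 3 and CRE 5 above. For complex IV the 3 mitochondrial subunits had between 12.6 and 18.7 times the counts of the 12 nuclear subunits in CS7KO libraries, and between 2.61 and 281 times in CRE libraries. In CRE 1 the low ratio came with high nuclear subunit RNA, since the 36 nuclear subunits of complex I summed to 20693 CPM there and to 4001 to 8896 CPM in the other 7 libraries.

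As shares of mitochondrial counts, the 4 complexes were compared next. The 7 complex I messenger RNAs (mt-Nd1 to mt-Nd6 and mt-Nd4l) made up 39.1 ± 0.910% of mitochondrial counts in CS7KO and 39.0 ± 2.17% in CRE (SD, n = 4 each). The 3 complex IV messenger RNAs (mt-Co1, mt-Co2 and mt-Co3) made up 39.5 ± 0.908% in CS7KO and 38.5 ± 5.29% in CRE. Complex III has a single mitochondrial gene, mt-Cytb for cytochrome b, at 16.1 ± 0.267% in CS7KO and 16.3 ± 1.65% in CRE. The complex V genes mt-Atp6 and mt-Atp8, which encode subunits of the membrane part of ATP synthase, made up 2.098 ± 0.360% in CS7KO and 1.80 ± 1.13% in CRE. In none of the 4 complexes did the groups separate, and the difference of means was under 1 percentage point in each.

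The most counted gene was mt-Co1 (MT:5328-6872, plus strand), the catalytic core of cytochrome c oxidase. It took 34.5%, 33.1%, 33.6% and 33.97% of mitochondrial counts in CS7KO 1 to 4, against 25.8%, 35.6%, 35.6% and 37.1% in CRE 1, 2, 3 and 5. CRE 1 was the low library, and the other CRE libraries lay above all CS7KO libraries. mt-Nd1 (MT:2751-3707, plus strand), a membrane subunit of complex I, showed the opposite order in CRE 1. Its share was 10.1%, 10.5%, 11.5% and 9.84% in CS7KO 1 to 4 and 16.1%, 11.0%, 10.6% and 11.0% in CRE 1, 2, 3 and 5. Apart from CRE 1 the 7 libraries lay between 9.84% and 11.5%.

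Levels of different genes were compared per base of gene length, as a share of the summed counts per base of the 15 messenger and ribosomal RNA genes. On this scale mt-Co1 had a median of 26.5% over the 8 libraries, mt-Cytb 16.6% and mt-Nd1 13.3%. These were followed by mt-Nd4 at 8.599% and mt-Nd2 at 8.18%, both complex I subunits of the antiporter-like membrane arm. mt-Nd6, the single messenger RNA encoded on the minus strand, stood at 6.07%, mt-Nd5 at 4.62%, mt-Co3 at 4.46%, mt-Co2 at 3.81% and mt-Atp6 at 3.65%. In the lower part of this order the ranges of mt-Nd5, mt-Co3, mt-Co2 and mt-Atp6 over the libraries overlap. Their order is that of medians, and differences within libraries were not tested. The ribosomal RNAs ranked below these messenger RNAs, with 1.56% for mt-Rnr2 (the large subunit RNA) and 0.986% for mt-Rnr1 (the small subunit RNA), in libraries made from polyadenylated RNA. The lowest were mt-Nd3 at 0.617%, mt-Nd4l at 0.287% and mt-Atp8 at 0.0316%. Nuclear copies, described below, match mt-Co2, mt-Atp6, mt-Co3, mt-Nd3 and mt-Nd4l at 99.71% or 100% over nearly their whole length. Copies of mt-Co1 and mt-Nd4 match over a part of the gene. How shared reads were counted is not stated, so this order is one of counts and need not be that of RNA levels. The part of the copies in it was not tested.

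**Figure D2:**
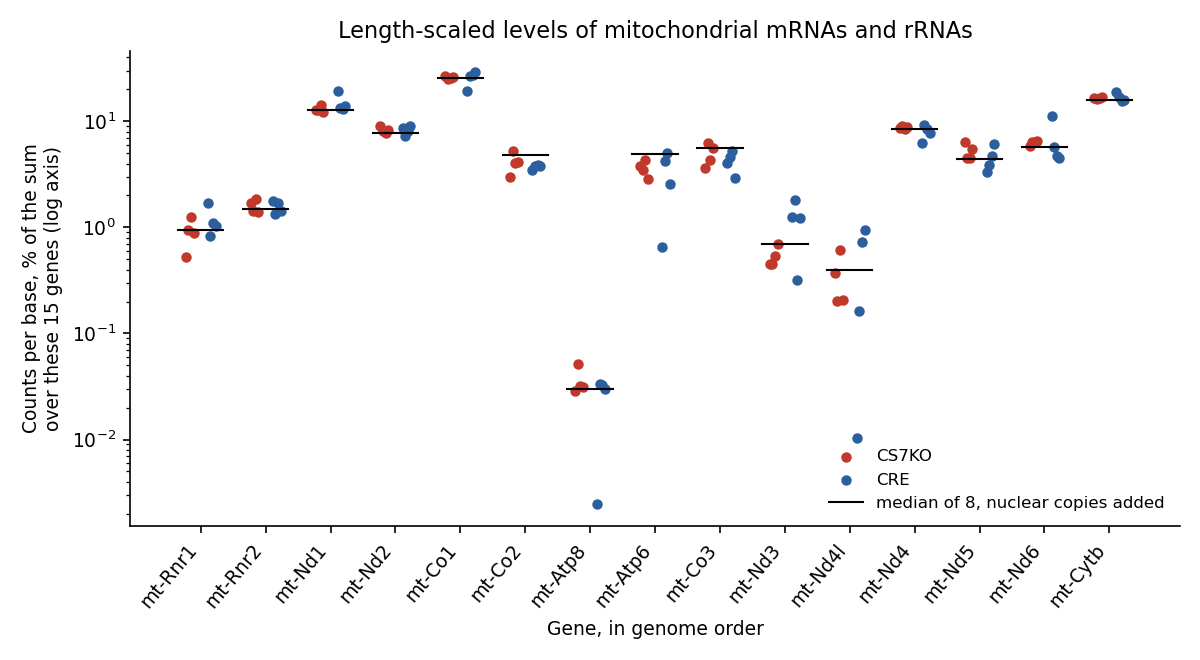
Counts per base of gene for the 2 ribosomal and 13 messenger RNA genes in genome order, as a percentage of their sum in each library, on a log axis. Points are single libraries, and the black line is the median of 8 libraries after counts of nuclear copies are added. mt-Co1 is the highest at a median of 25.7%, and the lowest point of mt-Nd4l, mt-Atp8 and mt-Atp6 is CRE 1 each time.

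The 3 least counted messenger RNAs are short, though the per-base scale already takes length into account. Of these, mt-Atp8 and mt-Nd4l share bases with the next gene and mt-Nd3 does not. The stretches below are shown because a read that falls on the shared bases belongs to both genes, and the sources used here do not say how such reads were counted. They are read on the plus strand of GRCm38 from the GENCODE M21 transcripts, with the shared bases in capitals and 20 bases on each side. The mt-Atp8 and mt-Atp6 frames share 43 bases (MT:7907-7989 shown) and the mt-Nd4l and mt-Nd4 frames share 7 bases (MT:10147-10193 shown).
mt-Atp8/mt-Atp6 overlap: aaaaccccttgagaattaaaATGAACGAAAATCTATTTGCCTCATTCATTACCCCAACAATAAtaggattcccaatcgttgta
mt-Nd4l/mt-Nd4 overlap: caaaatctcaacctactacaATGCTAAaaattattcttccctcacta
The capitals open with the ATG of the downstream gene and close with the last base of the upstream gene. On the opposite strand mt-Nd6 runs against the end of mt-Nd5, and the pair share 14 bases. The sources used here do not say whether counting used strand.

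mt-Atp8, mt-Atp6 and mt-Nd4l were also the messenger RNAs in which CRE 1 fell furthest below the rest. mt-Atp6, the subunit that forms the proton channel, took 2.15%, 2.05%, 2.53% and 1.65% of mitochondrial counts in CS7KO 1 to 4 and 0.382%, 2.44%, 2.92% and 1.43% in CRE 1, 2, 3 and 5. For mt-Nd4l, a small complex I subunit, the counts were 4111, 2262, 12738 and 2153 in CS7KO 1 to 4 and 86, 1673, 22566 and 26664 in CRE 1, 2, 3 and 5. mt-Atp8, a short accessory subunit, had 221, 399, 454 and 224 counts in CS7KO 1 to 4 and 14, 234, 692 and 577 counts in CRE 1, 2, 3 and 5. In each of these genes CRE 1 was the lowest of the 8 libraries, and without it the groups still overlapped. As a share of mitochondrial counts, CRE 1 was the highest library for 14 and the lowest for 13 of the 36 genes with any count. The next most frequent extremes were 11 lowest shares in CRE 5 and 8 highest shares in CS7KO 1.

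The ribosomal RNA genes gave a closer picture. mt-Rnr2 took 2.13 ± 0.289% of mitochondrial counts in CS7KO and 2.09 ± 0.278% in CRE, and mt-Rnr1 took 0.730 ± 0.245% in CS7KO and 0.947 ± 0.317% in CRE (SD, n = 4 each). For mt-Rnr1 the libraries stood at 0.418%, 0.768%, 1.01% and 0.717% in CS7KO 1 to 4 and at 1.40%, 0.674%, 0.891% and 0.820% in CRE 1, 2, 3 and 5. CS7KO 1 was the lowest and CRE 1 the highest, and the rest lay between 0.674% and 1.01%.

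Transfer RNA genes made up a small share of mitochondrial counts except in CRE 1. The share was 0.392%, 0.343%, 0.466% and 0.314% in CS7KO 1 to 4, against 4.78%, 0.240%, 0.291% and 0.214% in CRE 1, 2, 3 and 5. CRE 1 stood far above every other library, and the other 3 CRE libraries lay below all CS7KO libraries. In CRE 1 the 8 transfer RNA genes of the minus strand held 4.66% of mitochondrial counts and the 14 genes of the plus strand 0.123%. Of the 4.66%, mt-Tc held 3.21% and mt-Tn 1.28%. Not all minus-strand genes were high, since mt-Te had its lowest share in CRE 1, at 0.0142% against 0.0175% to 0.0561% elsewhere. The minus-strand genes took 0.176% to 0.395% in the other 7 libraries, and the plus-strand genes 0.0332% to 0.0760%, so both sets were highest in CRE 1. Counts within a transfer RNA gene can come from the mature molecule or from precursors and messenger RNA ends that reach into it, and the table does not separate these.

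The excess was carried by mt-Tc and mt-Tn, the transfer RNAs for cysteine and asparagine, which lie beside each other on the minus strand with 32 bases between them. Their sequences are given with mt-Tg, the transfer RNA for glycine on the plus strand, because these are the transfer RNAs with the largest excess in CRE 1. The sequences come from GENCODE M21 on GRCm38, are written in the gene's own direction, and carry the anticodon in capitals, found as the triplet in a 7-base loop closed by 5 base pairs. The positions are MT:5192-5257 on the minus strand for mt-Tc, MT:5089-5159 on the minus strand for mt-Tn and MT:9391-9458 on the plus strand for mt-Tg.
mt-Tc: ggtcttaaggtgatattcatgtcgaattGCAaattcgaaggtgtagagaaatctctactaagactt
mt-Tn: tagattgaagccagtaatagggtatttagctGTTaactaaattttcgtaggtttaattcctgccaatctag
mt-Tg: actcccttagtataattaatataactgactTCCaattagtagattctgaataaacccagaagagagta
mt-Tc had 195, 160, 224 and 190 CPM in CS7KO 1 to 4 and 4599, 111, 307 and 653 CPM in CRE 1, 2, 3 and 5. mt-Tn had 132, 112, 198 and 132 CPM in CS7KO 1 to 4 and 1836, 62.0, 148 and 258 CPM in CRE 1, 2, 3 and 5. In both genes CRE 1 is the outlying library and CRE 2 lies below all CS7KO libraries, so the groups overlap. As a share of mitochondrial counts, CRE 1 stood at 39.2 times the median of the other 7 libraries for mt-Tc and 22.6 times for mt-Tn. The same ratio was 11.9 for mt-Tg, 10.5 for mt-Th (histidine), 5.67 for mt-Tl2 (leucine) and 5.06 for mt-Ta (alanine).

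Other transfer RNA genes went the opposite way in CRE 1. mt-Tm (methionine), mt-Tr (arginine) and mt-Tk (lysine) had 0 counts there. In the other 7 libraries mt-Tm had 20 to 214 counts, mt-Tr 34 to 149 and mt-Tk 4 to 23. A count of 0 in CRE 1 allows up to 0.133 CPM, the value of 3 counts. mt-Tl1, the leucine transfer RNA between mt-Rnr2 and mt-Nd1, had 64.5, 37.1, 48.5 and 42.7 CPM in CS7KO 1 to 4 and 6.41, 20.3, 84.0 and 223 CPM in CRE 1, 2, 3 and 5. Here too the CS7KO libraries lay inside the range of the CRE libraries. mt-Tf (phenylalanine) had 0 counts in all 8 libraries, which allows up to 0.0643 CPM in the deepest library and 0.363 CPM in CRE 5. mt-Tv (valine) and mt-Td (aspartate), the other genes below the filter, had 0 to 26 and 1 to 24 counts per library.

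**Figure D3:**
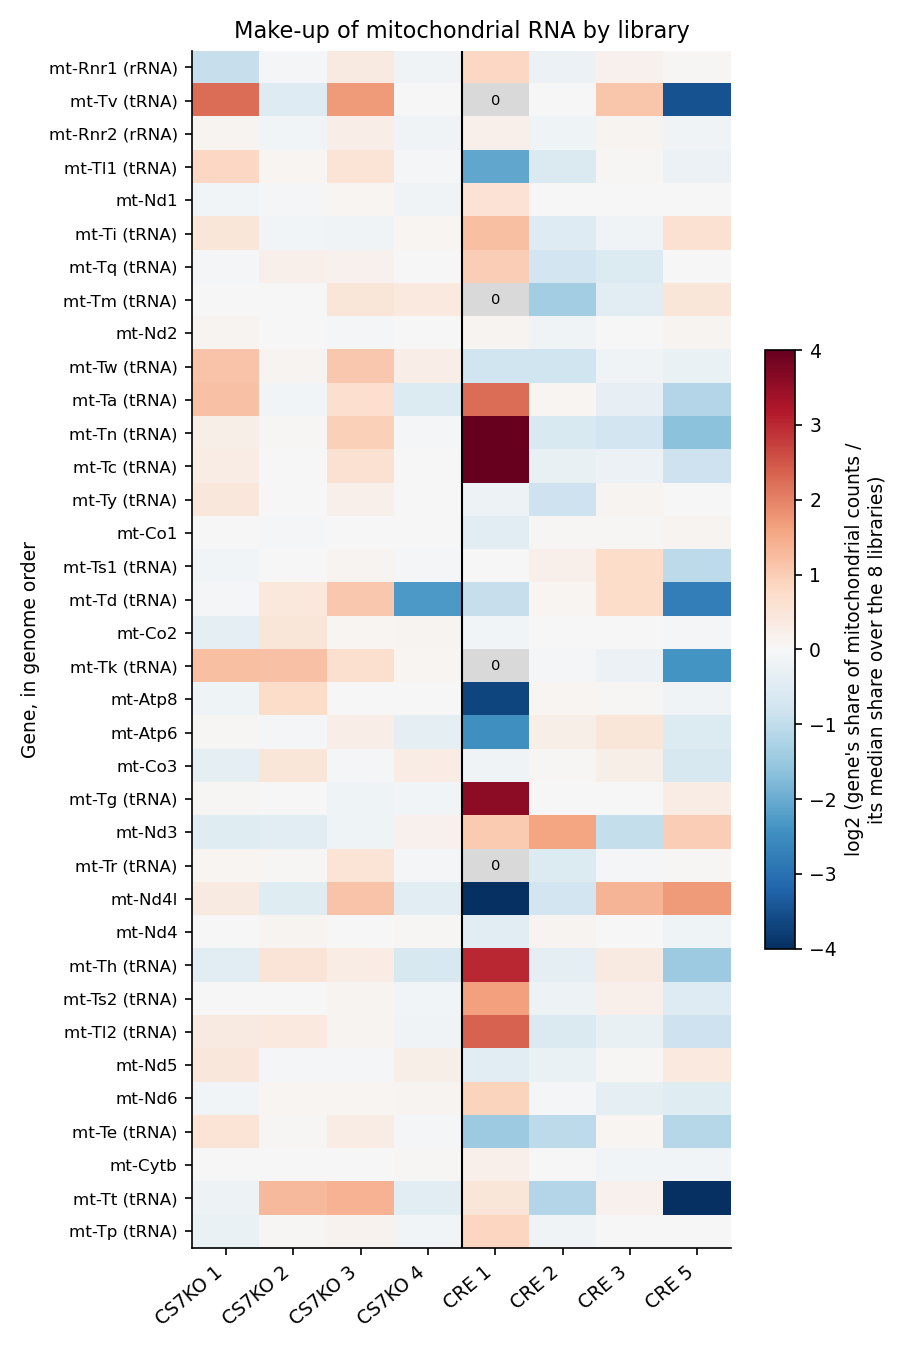
Each gene's share of mitochondrial counts in each library, as log2 of the share over its median over the 8 libraries, with genes in genome order and mt-Tf, at 0 everywhere, left out. Red is above and blue below the median, grey cells marked 0 have no count, and colours stop at 4 in either direction. The column of CRE 1 holds the strongest colours, with 14 highest and 13 lowest shares of 36 genes.

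Nuclear copies of mitochondrial genes limit what the counts of some members mean. Of the 37 genes, 11 matched an annotated nuclear gene at 90% identity or more over at least 100 bases, and 17 nuclear genes gave such a match. All 11 were protein-coding. The transfer RNA genes, 59 to 75 bases long, could not reach 100 bases, so the search says nothing about copies of them. Of these 17 genes 7 lie on chromosome 1, and 8 had over 1000 counts in all libraries together. Copies of mt-Co2 (Gm28661), mt-Atp6 (Gm10925), mt-Co3 (Gm28437), mt-Nd4l (Gm10222) and mt-Nd4 (Gm28439) matched at 100% over 681, 678, 783, 294 and 876 bases. A read from such a stretch fits the mitochondrial gene and its nuclear copy equally well, and the sources used here do not say how it was assigned.

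The copies together took 3.34%, 3.66%, 3.54% and 2.82% of the counts of the mitochondrial genes and copies in CS7KO 1 to 4, and 2.25%, 3.21%, 3.11% and 3.26% in CRE 1, 2, 3 and 5. These shares overlap between genotypes, with CRE 1 the lowest. For single genes the share was much larger. Copies held 30.7 ± 4.44% of the counts of mt-Atp6 and its copies in CS7KO and 27.9 ± 7.65% in CRE (SD, n = 4 each). The share was 23.5 ± 6.58% in CS7KO and 24.3 ± 8.84% in CRE for mt-Co2, and 24.2 ± 8.23% in CS7KO and 23.1 ± 4.46% in CRE for mt-Co3. For mt-Nd4l the values were 23.0 ± 9.27% in CS7KO and 29.4 ± 15.8% in CRE. Copies held 1.42 ± 0.217% in CS7KO and 1.74 ± 0.973% in CRE for mt-Co1, whose most counted copy, Gm29216, matches it over 483 bases. The share was 2.14 ± 0.590% in CS7KO and 2.00 ± 1.42% in CRE for mt-Nd4, which its copy Gm28439 matches over 876 bases. The groups overlapped in every gene. With copies added to the gene they match, mt-Co3 at a per-base median of 5.63%, mt-Atp6 at 4.96% and mt-Co2 at 4.85% lay above mt-Nd5 at 4.39%. Reads that fit both genes and were counted for neither, if any, stay missing from these values.

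mt-Nd3, a small complex I subunit, has a copy on chromosome 1, Gm28438, that differs from it in the aligned 345 bases at a single position, T3C, counted from 1 at the first base of the gene (T in mt-Nd3, MT position 9461). The first 60 bases of both are shown, in gene direction, since they hold the one difference of the aligned reference sequences. Bases beyond the alignment were not compared, and the mitochondrial sequence of these mice was not examined. The stretch of mt-Nd3 is MT:9459-9518 on the plus strand of GRCm38, both are taken from GENCODE M21, and the capital marks the differing base.
mt-Nd3 first 60 bases: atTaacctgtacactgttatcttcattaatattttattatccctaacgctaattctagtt
Gm28438 first 60 bases: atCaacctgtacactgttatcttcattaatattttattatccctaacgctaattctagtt
Gm28438 held 17.1%, 17.3%, 18.9% and 14.6% of the counts of both genes in CS7KO 1 to 4 and 16.9%, 7.34%, 39.0% and 13.6% in CRE 1, 2, 3 and 5. CRE 3 is the high and CRE 2 the low library of this split.

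**Figure D4:**
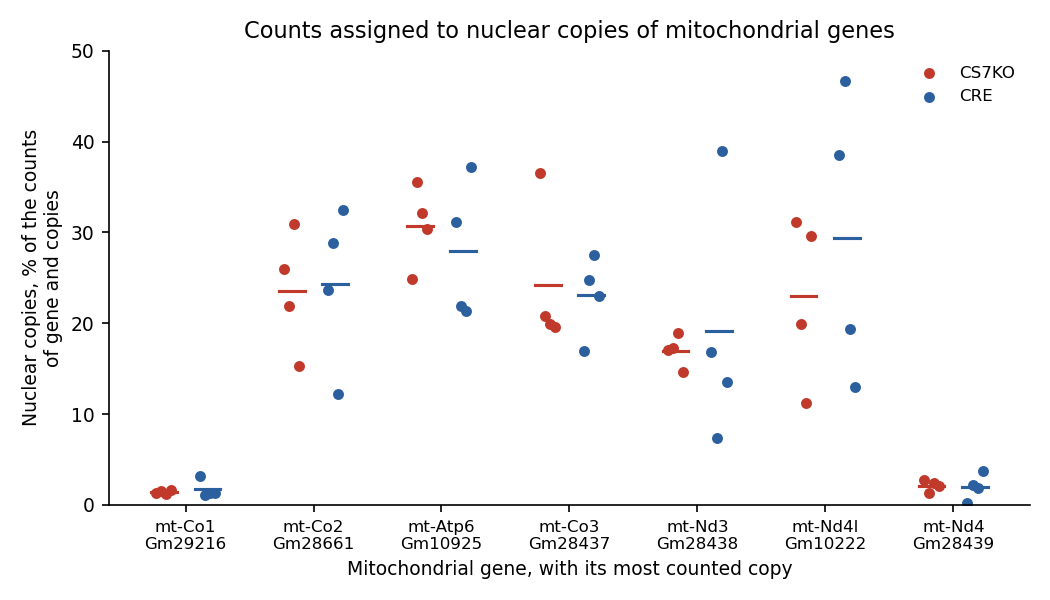
Share of counts assigned to nuclear copies, as a percentage of the counts of a mitochondrial gene and all its copies, for the 7 genes whose copies hold the most counts. Points are libraries and bars are group means of 4 libraries. The groups overlap in every gene, and copies of mt-Co2, mt-Atp6, mt-Co3, mt-Nd3 and mt-Nd4l hold between 7.34% and 46.7% of the counts.

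The comparison of genotypes asked which mitochondrial genes depend on cardiomyocyte Smad7 under pressure overload. None of the 34 tested genes passed (edgeR quasi-likelihood test with labelled sex in the model, adjusted over 16002 genes), against 6 of 16002 genes in all, or 0.0375%. At an unadjusted p under 0.05 there were 7 of the 34 (20.6%), all lower in CS7KO, against 12.6% of all tested genes in either direction and 6.52% in the lower direction. DESeq2 called mt-Nd3 and mt-Tg, both lower, or 5.88% of the 34, against 3.07% of all genes in either direction and 1.59% lower. The same genes were the 2 members called by edgeR with no filter on low counts, where 0.695% of all genes were called. Log2 fold changes were below 0 for 28 of the 34 (82.4%) and 48.1% of all genes. The median was -0.84 for the 34 genes and 0.03 for all 16002. The CPM ranges of the genotypes were separate for 0 of the 34 genes, against 4.11% of all tested genes with CS7KO lower and 6.24% with CS7KO higher. The 34 genes share 1 genome and its precursors, so they are not separate replicates of a genotype difference.

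The median of the members stayed below 0 when any single library was left out. It was nearest to 0 without CRE 5, at -0.20, with 12 genes above and 23 below 0. Without CRE 1 and CRE 5 it was -0.33, with 13 above and 23 below. Without CRE 3 and CRE 5, the CRE libraries of highest mitochondrial share, it was 0.34, with 22 above and 13 below. That fit also had no term for labelled sex, since the CRE libraries left carry 1 label, so libraries and model changed together. With all 8 libraries and no term for labelled sex the median was -1.30, with 2 above and 32 below. When libraries were scaled to their own mitochondrial total, it was 0.02, with 20 above and 14 below, and that scaling moved the median of all tested genes to 0.73. By library size alone the median of the members was -0.46, with that of all genes at 0.31. The TMM factor was 0.502 in CRE 5 and 0.955 to 1.25 in the other libraries, so CPM in CRE 5 are well above its counts scaled by library size alone.

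**Figure D5:**
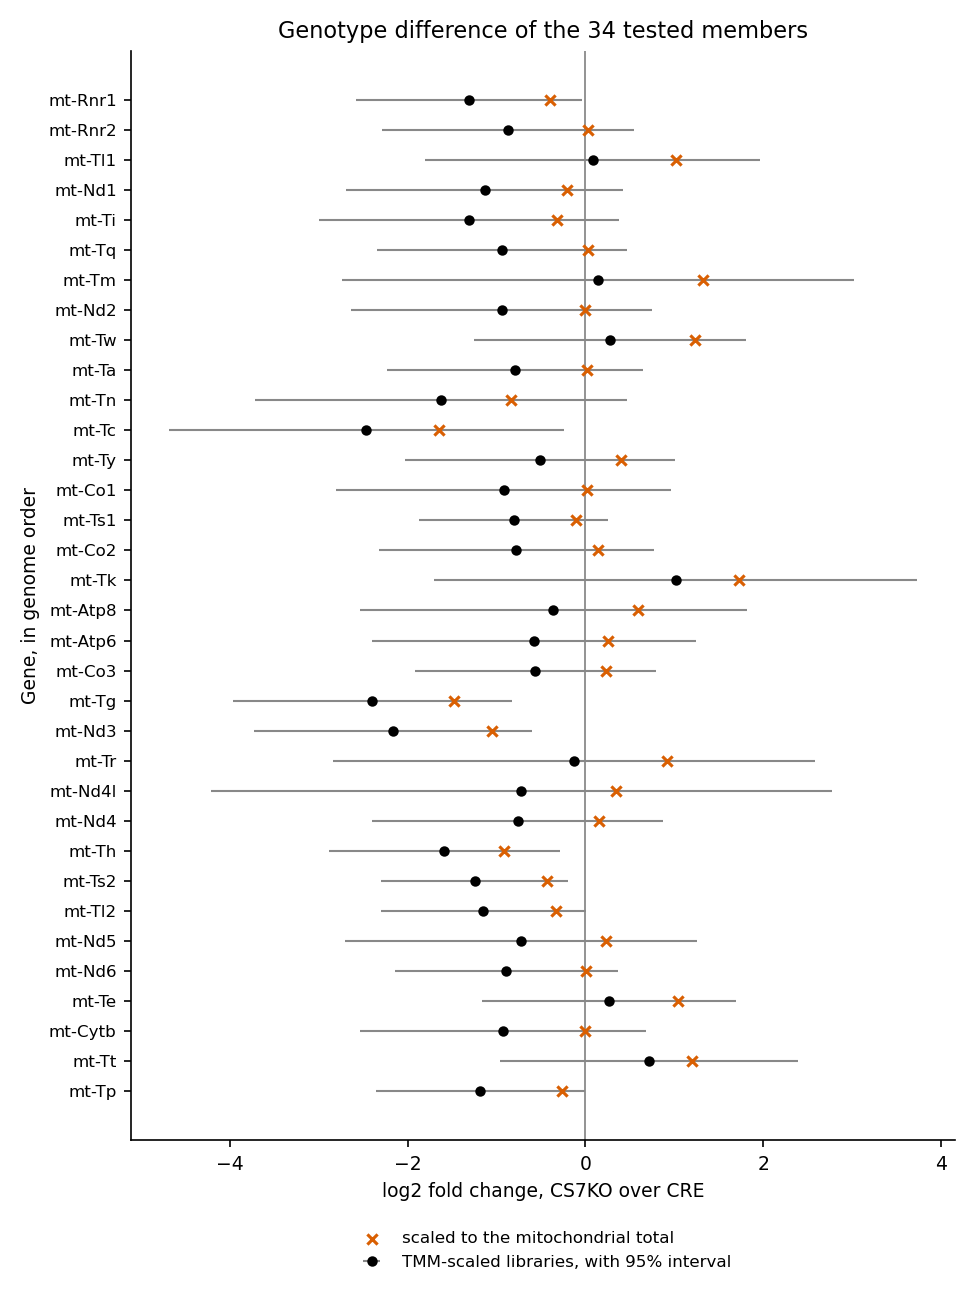
Log2 fold changes of CS7KO over CRE for the 34 tested mitochondrial genes, in genome order. Black points with 95% intervals come from the edgeR fit on TMM-scaled libraries, and crosses from the same fit scaled to each library's mitochondrial total. The points have a median of -0.84 and the crosses of 0.02, and no gene passed in either fit.

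mt-Nd3 (ENSMUSG00000064360) gave a low fitted value. It had 248, 255, 280 and 475 CPM in CS7KO 1 to 4 and 543, 884, 408 and 4976 CPM in CRE 1, 2, 3 and 5. The groups overlap through CS7KO 4 and CRE 3, and CRE 5 stands far above the rest. The log2 fold change was -2.17 (SE 0.70, edgeR adjusted p = 0.295, DESeq2 adjusted p = 0.0177), and -1.05 (SE 0.95) when scaled to the mitochondrial total. Without CRE 5 it was -0.97. Its share of mitochondrial counts, which does not depend on the mitochondrial level, was 0.130%, 0.136%, 0.161% and 0.204% in CS7KO 1 to 4 and 0.379%, 0.545%, 0.0942% and 0.357% in CRE 1, 2, 3 and 5. In 3 of the 4 CRE libraries this share was above all CS7KO libraries, and in CRE 3 it was below them. CRE 3 is also the library in which the copy Gm28438 held the largest part of the counts. The part of the copy in the low share was not tested.

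mt-Tg (ENSMUSG00000064359), the glycine transfer RNA just before mt-Nd3 on the genome, had 1.73, 1.67, 1.37 and 1.90 CPM in CS7KO 1 to 4 and 15.1, 1.41, 3.82 and 15.1 CPM in CRE 1, 2, 3 and 5. CRE 2 lay among the CS7KO libraries and the other CRE libraries above them. The log2 fold change was -2.40 (SE 0.70, edgeR adjusted p = 0.291, DESeq2 adjusted p = 0.0245). Without CRE 1 it was -1.51, and without CRE 1 and CRE 5 it was -0.49. The value rests on 34 to 342 counts per library. For mt-Tc it was -2.47 (SE 1.00, edgeR adjusted p = 0.361), -0.48 without CRE 1 and 0.08 without CRE 1 and CRE 5.

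The other genes with an unadjusted p under 0.05 were mt-Th at -1.59 (SE 0.58), mt-Rnr1 at -1.31 (SE 0.57), mt-Ts2 (serine) at -1.25 (SE 0.47) and mt-Tp (proline) at -1.18 (SE 0.53) on the log2 scale. None passed (edgeR adjusted p from 0.327 to 0.392). Among messenger RNAs beside mt-Nd3, the fitted values ran from -1.14 (SE 0.70) for mt-Nd1 to -0.36 (SE 0.98) for mt-Atp8. mt-Co1 stood at -0.92 (SE 0.84), mt-Cytb at -0.93 (SE 0.72), mt-Nd2 at -0.94 (SE 0.76) and mt-Nd6 at -0.89 (SE 0.56). mt-Nd4 stood at -0.76 (SE 0.73), mt-Nd5 at -0.73 (SE 0.89), mt-Nd4l at -0.72 (SE 1.57), mt-Co2 at -0.78 (SE 0.69), mt-Atp6 at -0.58 (SE 0.82) and mt-Co3 at -0.57 (SE 0.61). All 12 of these intervals include 0. The widest error belongs to mt-Nd4l, the gene whose CRE libraries spanned 3.80 to 3226 CPM.

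Fitted values above 0 came from transfer RNA genes: mt-Tk at 1.02 (SE 1.22), mt-Tt (threonine) at 0.71 (SE 0.75), mt-Tw (tryptophan) at 0.28 (SE 0.69), mt-Te (glutamate) at 0.26 (SE 0.64), mt-Tm at 0.14 (SE 1.29) and mt-Tl1 at 0.08 (SE 0.84). None passed. For mt-Tw, mt-Te, mt-Tm and mt-Tl1 the mean CPM was lower in CS7KO, and without the term for labelled sex the fitted values were -0.42, -0.42, -1.30 and -0.79. As shares of mitochondrial counts, mt-Tw and mt-Tk alone of the 36 genes with any count separated the groups, both higher in CS7KO. Random assignment of the libraries separates the groups with a probability of 0.0286 per gene. Separation of so few of 36 genes is therefore no result about these genes. mt-Tw took 0.00595% to 0.0120% in CS7KO and 0.00311% to 0.00497% in CRE. mt-Tk took 0.000192% to 0.000419% in CS7KO and 0 to 0.000174% in CRE, from 0 to 23 counts per library. Neither passed when scaled to the mitochondrial total (edgeR adjusted p = 0.744 for both). The remaining transfer RNA genes ran from -1.63 (SE 0.94) for mt-Tn to -0.13 (SE 1.22) for mt-Tr.

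Ratios between pairs of mitochondrial RNAs were taken per library, since they depend on neither library size nor mitochondrial content. Of 12 ratios between neighbours along the genome or between genes of opposite strands, 0 passed a two-sided exact permutation test over the 70 assignments of the libraries. The smallest p possible there is 0.0286. A single ratio at that p has an adjusted p of 0.343 over the 12 ratios, so none could pass alone. The absence of calls therefore says little about the ratios. The smallest unadjusted p was 0.143 (adjusted over the 12 ratios 0.686), for mt-Nd3 over mt-Co3 and for mt-Nd1 over mt-Rnr2. The log2 ratio of mt-Nd3 to mt-Co3, genes that flank mt-Tg, was -4.18, -4.96, -4.17 and -4.18 in CS7KO 1 to 4 and -2.84, -2.51, -5.22 and -2.42 in CRE 1, 2, 3 and 5. In 3 CRE libraries it was above every CS7KO library, and CRE 3 was the lowest of all 8. The difference of means was -1.13, and -1.21 with nuclear copies added (exact permutation test, adjusted p = 0.823). For mt-Nd1 over mt-Rnr2, which mt-Tl1 separates, the log2 ratio averaged 2.31 ± 0.133 in CS7KO and 2.53 ± 0.214 in CRE (SD, n = 4 each).

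Among the other ratios, mt-Nd4l over mt-Nd4 averaged -7.03 ± 0.807 in CS7KO and -7.61 ± 2.83 in CRE on the log2 scale (SD, n = 4 each), with CRE libraries from -11.46 in CRE 1 to -5.25 in CRE 5. mt-Co3 over mt-Atp6 averaged 0.63 ± 0.548 in CS7KO and 0.96 ± 1.25 in CRE. mt-Nd6 over mt-Cytb sets a gene of the minus strand against one of the plus strand. Whether counting used strand is not stated, so this need not compare RNA of the strands. The ratio averaged -2.55 ± 0.0787 in CS7KO and -2.60 ± 0.486 in CRE on the log2 scale, with CRE 1 alone above -2. mt-Co1 over mt-Nd2 averaged 2.22 ± 0.0639 in CS7KO and 2.19 ± 0.320 in CRE. mt-Rnr2 over mt-Rnr1 averaged 1.61 ± 0.542 in CS7KO and 1.19 ± 0.296 in CRE, with CS7KO 1 at 2.42 and the other 7 libraries between 0.77 and 1.44. In all 12 ratios the groups overlapped.

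Whether the genotype difference itself differed between the labelled sexes was asked with an interaction term in a model of 4 groups of 2 libraries. By edgeR 0 of the 34 genes passed, against 0% of 16002 genes, and 18 of the 34 (52.9%) had an unadjusted p under 0.05, against 7.08% of all. DESeq2 called 8 of the 34 (23.5%), against 0.294% of all genes, and edgeR with no filter on low counts called 4 of 36, against 0.0986%. The members' median interaction was 2.29 on the log2 scale, the difference between CS7KO and CRE being more positive in the libraries labelled male. This contrast sets CRE 1 and CRE 2 against CRE 3 and CRE 5, the CRE libraries of low and high mitochondrial share, and since the libraries labelled female show no Xist it cannot be read as a difference between the sexes. mt-Te had the smallest p of the 34 (interaction 3.17, SE 0.53, edgeR adjusted p = 0.667, DESeq2 adjusted p = 3.26e-05). Its CPM was 107, 76.0, 82.1 and 86.3 in CS7KO 1 to 4 and 20.3, 30.4, 177 and 244 in CRE 1, 2, 3 and 5, with the CS7KO libraries between the pairs of CRE libraries. Without CRE 2 edgeR called 9 members, against 8.55% of all genes, in a fit where CRE 1 alone stood for its group and was assumed to vary like the others.

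Nuclear genes that act on mitochondrial RNA gave 0 calls in edgeR (0.0375% of all genes were called). The lists hold genes of transcription (11 tested), RNA processing and modification (26), RNA stability and decay (20) and mitochondrial DNA maintenance (19). Their median log2 fold changes were -0.01, 0.06, 0.21 and 0.11, beside 0.03 for all genes, and 1 gene of each list had an unadjusted p under 0.05. The transcription factor Tfb2m, which opens mitochondrial promoters for the polymerase, had 52.7, 41.6, 38.3 and 55.7 CPM in CS7KO 1 to 4 and 17.4, 42.3, 22.6 and 12.9 CPM in CRE 1, 2, 3 and 5. CRE 2 lay among the CS7KO libraries and the other CRE libraries below them (log2 1.02, SE 0.36, edgeR adjusted p = 0.311). Grsf1, an RNA-binding protein of mitochondrial RNA granules, had 161, 154, 171 and 172 CPM in CS7KO 1 to 4 and 112, 152, 86.8 and 50.7 CPM in CRE 1, 2, 3 and 5. Its groups did not overlap, by a narrow gap to CRE 2 (log2 0.79, SE 0.32, edgeR adjusted p = 0.363), as 6.24% of all tested genes did in the higher direction.

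The elongation factor Tefm stood at 0.72 (SE 0.35), the pseudouridine synthase Trub2 at 0.65 (SE 0.28) and Nsun3, which modifies the methionine transfer RNA, at 0.71 (SE 0.33) on the log2 scale. Pde12, a mitochondrial poly(A) exonuclease, stood at 0.70 (SE 0.33), the replicative helicase Twnk at 0.66 (SE 0.29), and Rrm2b, which supplies nucleotides for mitochondrial DNA, at 0.56 (SE 0.26). None of these 6 genes passed, with edgeR adjusted p from 0.384 to 0.424.

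Nuclear subunits of the same respiratory complexes also gave 0 calls. Complex I had 8 of 36 subunits above and 28 below 0, with a median of -0.42. Complex III had 4 of 9 above and a median of -0.21, complex IV 2 of 12 above and a median of -0.28, and complex V 5 of 15 tested rows above and a median of -0.19. Ndufb2, an accessory subunit of complex I, had 8.22, 14.5, 8.58 and 17.7 CPM in CS7KO 1 to 4 and 107, 10.2, 23.5 and 40.2 CPM in CRE 1, 2, 3 and 5. CRE 1 was the highest and CRE 2 lay among the CS7KO libraries (log2 -1.83, SE 0.64, edgeR adjusted p = 0.313). Ndufa12, another accessory subunit, stood at -1.28 (SE 0.48) and the complex III subunit Uqcr11 at -1.12 (SE 0.61). Their partner Uqcrc2, a core protein of complex III, stood at 1.17 (SE 0.49), in the other direction. In complex IV Cox7a1 and Cox5b stood at -0.98 (SE 0.61) and -0.72 (SE 0.55), and in complex V Atp5a1, the alpha subunit, at 0.80 (SE 0.49) and Atp5e at -1.01 (SE 0.69). The 36 complex I subunits summed to 5954, 7804, 6469 and 8896 CPM in CS7KO 1 to 4 and to 20693, 6862, 8291 and 4001 CPM in CRE 1, 2, 3 and 5. CRE 5, highest in mitochondrially encoded RNA, was thus the lowest of the 8 in nuclear-encoded complex I RNA, and CRE 1, lowest in mitochondrial share, was the highest. Among markers of cell types of the heart, 14 of 15 endothelial markers had fitted log2 values below 0 (median -1.03) and 11 of 15 cardiomyocyte markers had values above 0 (median 0.68). None of these passed (smallest edgeR adjusted p 0.291 for endothelial and 0.292 for cardiomyocyte markers). Their part in the values of the mitochondrial genes was not tested.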

How the data were processed

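RNA of 8 whole mouse hearts was sequenced from polyadenylated RNA extracted with Trizol, per the labels' protocols. The deposited values are raw counts of reads, 1 table for all libraries, not normalized. Per the submitters' processing notes the builds were mm10 and GRCm38.p6 and the tools HTSeq 0.6.1, TopHat2 2.0, CASAVA and Cufflinks 2.1.1, with no role given. The treatment of multiply mapped reads, strand and overlapping genes is not stated there. Start, end and strand of all 37 mitochondrial genes equal GENCODE M21 (GRCm38), from which sequences were read.

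All columns map to a labelled sample. Counts were fitted with edgeR 4.0.16 in R 4.3.3: filterByExpr (minimum count 10, total 15) kept 16002 genes, TMM gave the scaling, and genotype was tested by robust quasi-likelihood with labelled sex as a covariate, with p-values adjusted by Benjamini and Hochberg over all genes (threshold 0.05). Standard errors were derived from the F statistic. CPM use the TMM-scaled library size. The interaction used 4 groups of 2 libraries. Nuclear copies were found with blastn 2.17.0 among M21 transcripts. Fits were tested on simulated data. The labels give no shared animal or batch for replicate numbers. Replicates are separate hearts, described as independent, and differed by more than counting noise.

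Alternatives were DESeq2 1.42.0, limma-voom (limma 3.58.1), other scalings and filters, protein-coding genes alone, an adjusted p under 0.1, no term for sex, a replicate block, and each library left out. Leaving out CRE 3 and CRE 5, or CRE 1 and CRE 5, was added after the data were seen. The fit without CRE 3 and CRE 5 had no term for labelled sex, since the CRE libraries left carry 1 label. The members and lists were chosen with earlier results of these data known. Named genes are the protein-coding and ribosomal RNA members, the tested transfer RNA genes, their nuclear copies, Smad7 and, of each companion list, the 2 genes with the smallest p where none was called. For length, such pairs are left out for the marker lists, among which Myh6, Tnnt2, Ttn, Pecam1, Cdh5, Adipoq and Lep are examples. Lymphocyte markers are not reported here.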

Additional observations from a re-analysis of the deposited data

Results flagged for a closer look

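Among 98 groups of 4 libraries (CPM of each of the 36 genes with a count, the mitochondrial share of the library and the 12 log2 ratios, per genotype), 13 held a library far from the other 3, judged by its gap over the group's range. Chance alone gives about 1 in 20.

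CRE 5 stood apart with 27.7 CPM for mt-Ti (isoleucine), 28.9 CPM for mt-Tq (glutamine), 25.9 CPM for mt-Tm and 4976 CPM for mt-Nd3, each above the other CRE libraries. In CRE 1 this held for mt-Tc at 4599 CPM, mt-Tn at 1836 CPM and the log2 ratio of mt-Co3 to mt-Atp6 at 2.83, where the other CRE libraries lay between 0.26 and 0.42.

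In CS7KO the libraries that stood apart were CS7KO 2 for mt-Rnr2 (3617 CPM, the others 4274 to 4378 CPM) and CS7KO 4 for mt-Nd3 (475 CPM, the others 248 to 280 CPM). CS7KO 1 stood apart in the log2 ratio of mt-Rnr2 to mt-Rnr1 (2.42) and of mt-Nd6 to mt-Cytb (-2.67, the others -2.52 to -2.51). The log2 ratio of mt-Nd3 to mt-Co3 had such a library in both genotypes, at -4.96 in CS7KO 2 and at -5.22 in CRE 3.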

How the results depend on the processing

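No member was called for genotype in edgeR when any library was left out, or under limma-voom, other scalings, the stricter filter, protein-coding genes alone, an adjusted p under 0.1, no term for sex or the replicate block. With no filter on low counts 2 were called (mt-Nd3 and mt-Tg; 0.695% of all genes), 4 for the interaction (0.0986% of all genes), and 1 gene of the companion lists (Ndufb2). DESeq2 called 2 for genotype (3.07% of all genes) and 8 for the interaction (0.294% of all genes). Leaving out single libraries gave 0 to 9 members for the interaction (9 without CRE 2) and a share difference of -21.8 to -3.55 points. Without CRE 3 and CRE 5 that difference was 4.25 points, and without CRE 1 and CRE 5 the share stayed lower in CS7KO. The causes were not tested. Replicate numbers do not pair the samples: deviations correlated at 0.042, -0.088 and 0.352, and 3 of 6 libraries correlated best with their own number. With the block 2 genes in all were called, beside 6.

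Log2 fold changes turned sign under several settings, none with a call. The fit without CRE 3 and CRE 5 also lacked the term for labelled sex. Scaled to the mitochondrial total they were 0.26 for mt-Atp6, 0.59 for mt-Atp8, 0.017 for mt-Co1, 0.14 for mt-Co2, 0.23 for mt-Co3, 0.34 for mt-Nd4l, 0.15 for mt-Nd4, 0.23 for mt-Nd5, 0.0057 for mt-Nd6, 0.029 for mt-Rnr2, 0.014 for mt-Ta, 0.034 for mt-Tq, 0.92 for mt-Tr and 0.40 for mt-Ty. Without CRE 3 and CRE 5 they were 0.78 for mt-Atp6, 1.19 for mt-Atp8, 0.43 for mt-Co1, 0.46 for mt-Co2, 0.49 for mt-Co3, 0.20 for mt-Cytb, 0.34 for mt-Nd2, 2.15 for mt-Nd4l, 0.45 for mt-Nd4, 0.83 for mt-Nd5, 0.33 for mt-Rnr2, 0.077 for mt-Tq, 1.89 for mt-Tr, 0.19 for mt-Ts1 and 0.99 for mt-Ty. Without CRE 1 and CRE 5 they were 0.10 for mt-Ta, 0.078 for mt-Tc, 0.13 for mt-Tl2, 0.61 for mt-Tn, 0.29 for mt-Tq and 0.021 for mt-Ty. With the replicate block they were 0.35 for mt-Atp6, 0.97 for mt-Atp8, 1.06 for mt-Nd4l, 0.14 for mt-Nd5, 1.40 for mt-Tr and 0.33 for mt-Ty. With no term for sex they were -0.42 for mt-Te, -0.79 for mt-Tl1, -1.30 for mt-Tm and -0.42 for mt-Tw. By library size alone mt-Atp8 was at 0.0090 and mt-Tr at 0.27, and by limma-voom mt-Nd4l at 0.55 and mt-Tm at -0.17.

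Leaving out single libraries, the values that turned ranged from -0.67 to 0.78 for mt-Tl1, -0.86 to 1.37 for mt-Tm, -0.20 to 0.97 for mt-Tw, -2.14 to 0.22 for mt-Tn, -1.09 to 0.18 for mt-Ty, -1.14 to 0.31 for mt-Atp8, -0.96 to 0.69 for mt-Tr, -2.01 to 0.57 for mt-Nd4l, -1.27 to 0.12 for mt-Nd5 and -0.28 to 0.82 for mt-Te. The log2 ratios ranged from -0.12 to 0.12 for mt-Co1/mt-Nd2, -0.064 to 0.25 for mt-Co2/mt-Co1, -0.56 to 0.29 for mt-Co3/mt-Atp6, -0.69 to 1.38 for mt-Nd4l/mt-Nd4, -0.075 to 0.23 for mt-Nd5/mt-Nd4 and -0.071 to 0.29 for mt-Nd6/mt-Cytb. As differences of medians mt-Co1/mt-Nd2, mt-Co3/mt-Atp6 and mt-Nd4l/mt-Nd4 were at -0.070, 0.24 and -0.33, and without CRE 1 and CRE 5 at -0.17, 0.33 and -0.15. Without CRE 3 and CRE 5, mt-Co2/mt-Co1 was at -0.026 and mt-Nd6/mt-Cytb at -0.26, which was -0.081 in the 3 pairs of the replicate block. Without a log, mt-Nd4l/mt-Nd4 and mt-Nd6/mt-Cytb differed by -0.0037 and -0.0015.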
